A study of Mus musculus with 10 samples.

Results

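The values below concern 10 mouse keratin genes, Krt8, Krt7, Krt5, Krt80, Krt18, Krt19, Krt15, Krt17, Krt20 and Krt23, chosen by name and matched on gene symbol among 31053 genes, 53 of which carry a keratin symbol. They were followed in single-cell transcriptomes of distal lung epithelium over 10 libraries in 6 groups. The control groups, Confetti RFP and Confetti YFP (1 library each), are EpCAM+ cells of Sftpc-CreERT2; R26R-Confetti mice, in which both colours are wildtype. The other 8 libraries are EpCAM+ cells of a mutant mouse line with the same Sftpc-CreERT2 driver, in which RFP+ cells are mutant and YFP+ cells are wildtype neighbours of the same lungs, with 2 libraries of each colour at 4 days and 2 at 2 weeks. All mice were adults given 3 doses of 0.2 mg tamoxifen per gram body weight, and the Cre is driven by Sftpc, a gene of alveolar type 2 (AT2) cells, so labelled cells descend from AT2 cells or from other cells that used this promoter. Lungs were pooled within a sample, the study's methods place Confetti at 2 weeks while its labels give no time, and nothing in the labels says whether the numbered libraries are separate sets of mice, so p-values measure the spread between libraries.

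Keratins are the intermediate filament proteins of epithelial cells. They work as obligate pairs of a type II and a type I chain, and Krt8 with Krt18 is the primary pair of simple epithelia. In the lung, a rise of Krt8 is known from cells in transit from the AT2 to the alveolar type 1 state after injury, often called damage-associated transient progenitors (DATPs), whereas Krt5, Krt15 and Krt17 are known from basal cells of the airway. The comparisons here ask how the keratins of mutant and wildtype cells stand to those of Confetti cells, and in which cell states they are found.

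After quality filters, 29578 of 32698 cells were alveolar, and the remainder were discarded as immune, endothelial, ciliated or mesenchymal (3.15% to 42.3% of a library). Alveolar UMIs, which are single transcript molecules, summed to between 7336824 and 71391814 per library, and the median per cell was 15800 and 13382 in the 2 weeks RFP libraries against 3252 to 6708 in the other 8. Pairs of libraries shared between 1 and 17 cell barcodes, with a median of 5. Libraries of 1 group stood apart: AT2-like cells made up 88.8% and 2.87% of 4 days RFP replicates 1 and 2, and 94.9% and 1.40% of the 4 days YFP replicates, against 95.7% and 96.6% in Confetti. DATP-like cells made up 1.16% and 36.0% of 4 days RFP replicates 1 and 2, and 20.8% and 39.4% of the 2 weeks RFP replicates. They made up 2.78% or less of each YFP library and were not found in Confetti, where 3 of 3804 RFP cells would be a share of 0.0789%. Mouse sex also moved with the libraries: among cells with Xist or Y-linked UMIs, 100% were female in Confetti, 25.8% to 85.1% in replicate 1 of each group of the mutant line and 0.536% or less in replicate 2. Sex, mouse line and group cannot be told apart in comparisons with Confetti.

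The 10 genes lie in the keratin clusters of chromosomes 15 and 11 (GENCODE M21, GRCm38). The 4 type II genes are Krt8 at chr15:101996698-102004482, Krt7 at chr15:101411043-101430313, Krt5 at chr15:101707070-101712898 and Krt80 at chr15:101347444-101370162. Krt18 is a type I gene but lies beside Krt8, head to head with it, at chr15:102028180-102032027. The other type I genes are Krt19 at chr11:100140810-100148665, Krt15 at chr11:100131758-100135928, Krt17 at chr11:100256217-100261029, Krt20 at chr11:99428403-99438150 and Krt23 at chr11:99477974-99493137. Each of the 4 type II genes overlaps an annotated gene on the other strand, and none of the 10 overlaps one on its own strand.

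Promoter sequence from RefSeq (GRCm38.p6) was matched for 6 of the 10 genes. The 250 bases before the start site as RefSeq places it are shown for the 4 matched genes that the test across all genes called in 2 weeks RFP against Confetti, described further on. Capitals mark matches on either strand to any of 5 motifs. The AP-1 motif was searched as the letters TGANTCA. The TEAD motif was searched as the letters GGAATG. The TATA box was searched as the letters TATAAA. The GC box was searched as the letters GGGCGG. The ETS motif was searched as the letters CCGGAA.
Krt8, chr15:102004343-102004592, minus strand: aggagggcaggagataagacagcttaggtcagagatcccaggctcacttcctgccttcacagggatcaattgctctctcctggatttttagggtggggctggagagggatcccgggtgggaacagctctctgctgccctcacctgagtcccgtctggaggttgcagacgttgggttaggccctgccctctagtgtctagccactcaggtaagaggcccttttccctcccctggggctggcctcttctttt
Krt18, chr15:102027966-102028215, plus strand: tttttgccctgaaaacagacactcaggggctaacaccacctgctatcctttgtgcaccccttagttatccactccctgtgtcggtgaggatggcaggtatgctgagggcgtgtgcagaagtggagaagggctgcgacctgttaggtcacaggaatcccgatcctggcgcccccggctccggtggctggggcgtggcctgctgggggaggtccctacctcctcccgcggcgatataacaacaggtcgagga
Krt7, chr15:101412153-101412402, plus strand: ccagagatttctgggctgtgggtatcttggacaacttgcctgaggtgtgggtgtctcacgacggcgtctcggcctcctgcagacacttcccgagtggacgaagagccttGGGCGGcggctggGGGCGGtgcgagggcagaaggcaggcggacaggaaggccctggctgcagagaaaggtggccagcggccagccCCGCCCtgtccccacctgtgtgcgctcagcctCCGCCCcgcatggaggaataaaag
Krt20, chr11:99438154-99438403, minus strand: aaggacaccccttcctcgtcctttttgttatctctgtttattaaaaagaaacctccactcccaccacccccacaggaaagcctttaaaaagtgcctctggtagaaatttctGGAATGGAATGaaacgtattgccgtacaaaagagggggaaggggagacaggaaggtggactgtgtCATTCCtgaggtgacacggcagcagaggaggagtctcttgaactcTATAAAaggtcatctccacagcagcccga
The Krt7 window held GC box letters at 4 places, whereas 32.7% of 32851 mouse promoter windows of this length held them at 1 place or more. The Krt20 window held the TEAD letters at 3 places, of which the first 2 overlap by 1 base, and the TATA letters once, found in 12.6% and 12.4% of all windows. None of these letters occurred in the Krt8 and Krt18 windows, and the AP-1 and ETS letters, in 6.75% and 12.0% of all windows, occurred in none of the 4. The RefSeq starts differ from the outer gene ends given above, so the Krt7 window lies inside the GENCODE gene and the Krt8 and Krt18 windows overlap its first bases. A match in letters is not a measured binding site.

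Krt18, Krt8, Krt7 and Krt19 rose in 2 weeks RFP libraries against Confetti, by log2 fold changes of 2.80, 2.15, 4.38 and 3.08, and Krt20, which is nearly silent in Confetti, was called as well. Of the 10 keratins 8 passed the filter on low counts in this fit, and 5 of these 8 were called higher and none lower by edgeR, whereas 5.33% of the 13771 genes tested were called in either direction. The median log2 fold change was 0.03 over all genes tested. These calls rested on few libraries, with 1 library in each Confetti group. No member was called when Confetti RFP, Confetti YFP, 4 days YFP replicate 1, 4 days YFP replicate 2 or 2 weeks RFP replicate 2 was left out, 1 was called without either 2 weeks YFP replicate, 3 without 2 weeks RFP replicate 1 and 5 without either 4 days RFP replicate, and none was called when the discarded cell types were added to the sums. Of all genes, 1 was called without either Confetti library, 43 and 48 without 4 days YFP replicates 1 and 2, 2 without 2 weeks RFP replicate 2, 93 and 97 without 2 weeks YFP replicates 1 and 2, 197 without 2 weeks RFP replicate 1, 1922 and 1913 without 4 days RFP replicates 1 and 2, and 0 of 15146 with the discarded cells added. The log2 fold changes stayed between 1.82 and 2.37 for Krt8, 2.30 and 3.13 for Krt18, 2.38 and 3.51 for Krt19 and 3.83 and 4.74 for Krt7 over these left-out libraries. That of Krt20, which had 2 UMIs in Confetti, ran from 3.16 without Confetti RFP to 7.90 without Confetti YFP, the latter against a library with no Krt20 UMI, where the fitted value depends on the prior count and is no bound.

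Levels of the members are TMM-scaled counts of UMIs relative to the library total (CPM), over all alveolar cells of a library. Paired values stand in the order RFP, YFP for Confetti and in replicate order for the other groups. A molecule is counted once whatever its length, but whether different genes are captured and mapped equally was not tested. Levels and ratios of different genes are thus compared as counts only.

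The primary pair was present in every library. Krt8 stood at 284 and 254 CPM in Confetti, at 971 and 1408 in the 2 weeks RFP replicates, at 414 and 693 in 4 days RFP, at 384 and 407 in 2 weeks YFP and at 286 and 275 in 4 days YFP. The RFP libraries of the mutant line thus all lay above the YFP and Confetti libraries, and 4 days YFP overlapped Confetti. The log2 fold change of Krt8 in 2 weeks RFP against Confetti was 2.15 (SE 0.36, adjusted p = 0.0366). Krt18, its partner, stood at 318 and 283 CPM in Confetti, at 1510 and 2670 in 2 weeks RFP, at 625 and 937 in 4 days RFP, at 491 and 712 in 2 weeks YFP and at 382 and 311 in 4 days YFP. Its log2 fold change in 2 weeks RFP was 2.80 (SE 0.42, adjusted p = 0.0332). In 2 weeks YFP both libraries lay above both Confetti libraries for Krt8 and for Krt18, with log2 fold changes of 0.56 (SE 0.34) and 1.00 (SE 0.39) that did not pass by edgeR (adjusted p = 0.765 for each).

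Krt7 and Krt19, secondary simple-epithelial keratins that are known from ducts and glands, started lower. Krt7 stood at 66.2 and 59.8 CPM in Confetti, at 912 and 1709 in 2 weeks RFP and at 72.7 and 78.7 in 4 days YFP. Between these, the replicates of a group lay far apart: 143 and 732 CPM in 4 days RFP, and 130 and 457 in 2 weeks YFP. In both cases replicate 2 was the higher, and it was also the replicate with the larger DATP-like share. In 2 weeks RFP the log2 fold change of Krt7 against Confetti was 4.38 (SE 0.90, adjusted p = 0.0440), the highest of the members with counts in each Confetti library. Krt19 stood at 65.4 and 68.1 CPM in Confetti, at 355 and 773 in 2 weeks RFP, at 121 and 279 in 4 days RFP, at 70.4 and 148 in 2 weeks YFP and at 73.2 and 50.7 in 4 days YFP. Its log2 fold change in 2 weeks RFP was 3.08 (SE 0.59, adjusted p = 0.0426). The 4 days YFP libraries and 2 weeks YFP replicate 1 lay around the Confetti level, and 2 weeks YFP replicate 2 lay above it.

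**Figure D1:**
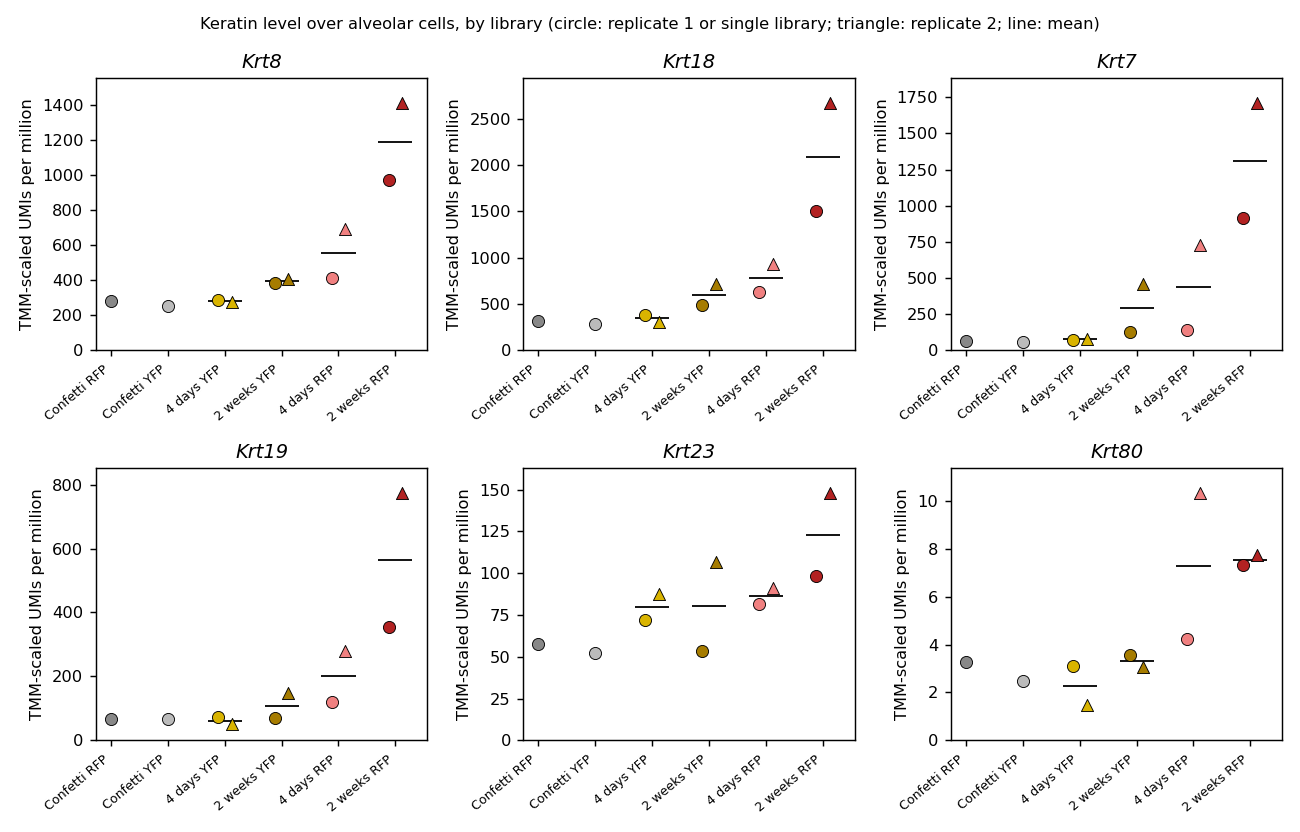
TMM-scaled CPM of 6 keratins (vertical axes, each from 0) in each of the 10 libraries (horizontal axes, by group), with circles for replicate 1 or a single library, triangles for replicate 2 and a line for the mean of 2. Krt8 stands at 971 and 1408 in 2 weeks RFP against 284 and 254 in Confetti, and the replicates of 4 days RFP lie apart for Krt7 (143 and 732).

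Krt23, a type I keratin, was carried by Confetti cells at almost the level of Krt7 and Krt19 and differed less between groups. It stood at 57.6 and 52.0 CPM in Confetti, 98.3 and 148 in 2 weeks RFP, 81.4 and 91.2 in 4 days RFP, 53.6 and 107 in 2 weeks YFP and 71.9 and 87.5 in 4 days YFP. Its log2 fold change in 2 weeks RFP of 1.17 (SE 0.37) did not pass (adjusted p = 0.0847). Krt80, a type II keratin, was low throughout, with 3.26 and 2.48 CPM in Confetti, 7.32 and 7.76 in 2 weeks RFP and 4.24 and 10.3 in 4 days RFP, and with 1.46 to 3.55 in the YFP libraries. Its log2 fold change in 2 weeks RFP was 1.41 (SE 0.50, adjusted p = 0.107).

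The remaining 4 members gave few UMIs. Krt20, a keratin known from gut and urothelium, had 2 UMIs over both Confetti libraries and 153 over both 2 weeks RFP libraries. The ratio of rates was 20.7 (exact 95% interval 5.63 to 173, for counting error only), and edgeR called the gene (adjusted p = 0.0496). The 2 weeks YFP libraries held 18 Krt20 UMIs, a ratio to Confetti of 8.76 (2.10 to 77.8), the 4 days RFP libraries held 1 and the 4 days YFP libraries none. Krt17 was found in the 2 weeks RFP libraries, with 46 UMIs (0.377 and 0.416 CPM), and had no UMI in the alveolar cells of the other 8 libraries. Against a floor of 3 counts over both Confetti libraries this was at least 4.15-fold higher, with no test, since the gene was below the filter. Krt17 shares near-identical stretches with Krt14 and Krt16, so its few counts are uncertain. Krt15 stood between 0.321 and 1.63 CPM in all libraries, with a log2 fold change in 2 weeks RFP of -0.38 (SE 0.74, adjusted p = 0.746). Krt5 had no UMI in any of the 32698 filtered cells, which allows at most 0.0942 CPM in Confetti and 0.0255 CPM in 2 weeks RFP at 3 counts.

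Markers of other cell types were read beside these levels in the same sums. Of the 4 basal markers, which besides Trp63 include Ngfr, Dlk2 and Aqp3, the summed level was 0.422 and 0.392 CPM in Confetti, 3.69 and 9.23 in 2 weeks RFP, 0.707 and 8.24 in 4 days RFP, 0.868 and 3.85 in 2 weeks YFP and 0.752 and 0.820 in 4 days YFP. The wildtype 2 weeks YFP replicate 2 was thus above 2 weeks RFP replicate 1. Nearly all of it was Aqp3 (3.52 and 9.21 CPM in 2 weeks RFP), while Trp63 and Ngfr stood at 0.226 CPM or below in every library and Krt5 at 0. The 5 mesothelial markers summed to 0.0603 and 0.196 CPM in Confetti and to 37.7 and 60.4 in 2 weeks RFP, of which Msln made up 37.6 and 60.4, with 2.07 and 43.2 in 4 days RFP and 3.02 and 13.6 in 2 weeks YFP, while Wt1 and Upk1b had no UMI in any library. Airway secretory markers moved the other way, from 2472 and 2458 CPM in Confetti to 161 and 81.7 in 2 weeks RFP, and ciliated markers from 93.7 and 93.9 to 28.2 and 16.6.

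At 4 days, no keratin was called in RFP against Confetti. edgeR called 0 of 13771 genes (0%), 1215 genes and 5 of the 8 members tested had an unadjusted p under 0.05, and DESeq2 called 264 genes, of which 2 were members. The log2 fold changes were 2.80 for Krt7 (SE 0.83, adjusted p = 0.495), 1.38 for Krt18 (SE 0.40, adjusted p = 0.495), 1.58 for Krt19 (SE 0.56, adjusted p = 0.531), 1.34 for Krt80 (SE 0.51) and 1.04 for Krt8 (SE 0.34). Without 4 days RFP replicate 2, Krt7 was at 1.20, Krt18 at 1.07, Krt19 at 0.87, Krt80 at 0.585 and Krt8 at 0.63, and without replicate 1 they were at 3.54, 1.64, 2.07, 1.86 and 1.37. Without 4 days RFP replicate 1, 332 genes were called and again no member.

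In the wildtype neighbours, no member was called either. For 2 weeks YFP against Confetti edgeR called 3 genes (0.0218%) and 0 of 8 members, of which 3 had an unadjusted p under 0.05, and DESeq2 called 102 genes and 0 members. Krt7 had the largest of the well-counted differences, 2.22 (SE 0.82, adjusted p = 0.765), with 130 CPM in replicate 1 and 457 in replicate 2. For 4 days YFP against Confetti, edgeR called 4 genes (0.0290%) and DESeq2 12, both with 0 members, and no member had an unadjusted p under 0.05. There the log2 fold changes of Krt8, Krt18, Krt19 and Krt7 were 0.06 (SE 0.34), 0.21 (SE 0.39), -0.11 (SE 0.55) and 0.27 (SE 0.78), of which those of Krt8 and Krt19 changed sign when 1 library was left out.

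**Figure D2:**
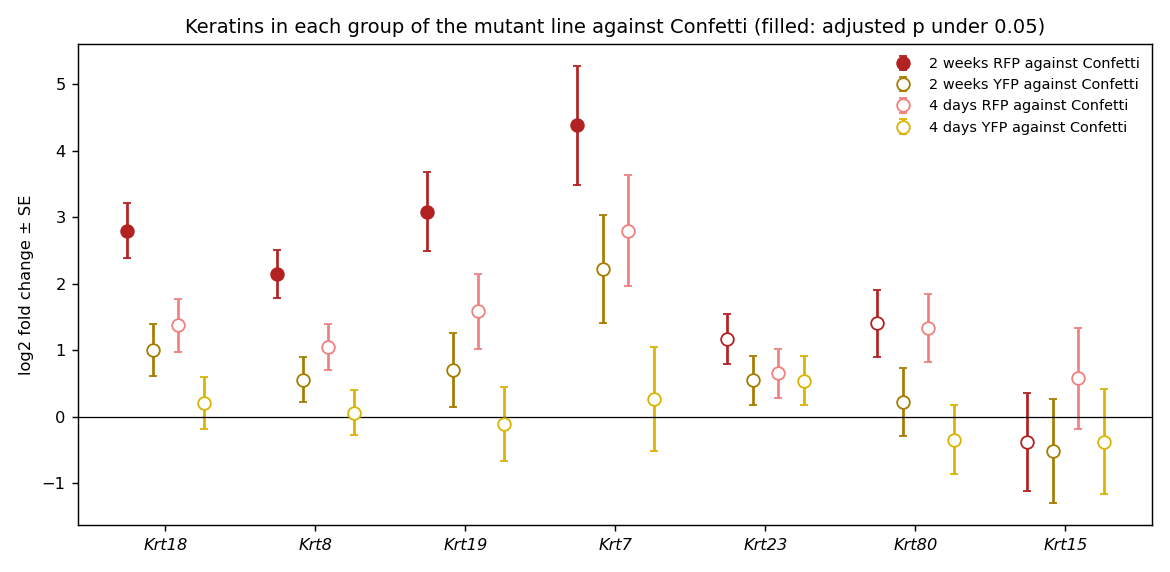
Log2 fold change with its SE (vertical axis) of 7 keratins (horizontal axis) in each group of the mutant line against the mean of both Confetti libraries, from 1 edgeR fit over 10 libraries, with filled points for adjusted p under 0.05. Filled points appear in 2 weeks RFP for Krt18 (2.80), Krt8 (2.15), Krt19 (3.08) and Krt7 (4.38), and the 4 comparisons share their control libraries.

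Mutant and wildtype cells of the same mouse line can be compared without Confetti. Over both time points, with 4 RFP and 4 YFP libraries and time as a term, edgeR called 0 of 12511 genes (0%) and 0 of the 7 members tested. Unadjusted, 2683 genes and 5 members were under 0.05, and DESeq2 called 1222 genes and 5 members. The log2 fold changes were 1.27 for Krt8 (SE 0.25), 1.47 for Krt18 (SE 0.28) and 2.02 for Krt19 (SE 0.40), each with an adjusted p of 0.0839, 2.32 for Krt7 (SE 0.55, adjusted p = 0.0875) and 1.40 for Krt80 (SE 0.34, adjusted p = 0.0882). Krt8, Krt18 and Krt80 were higher in each RFP library than in each YFP library of its time point, and so were Krt7 and Krt19. With the replicate number within each time point as a block, which pairs RFP and YFP libraries, 5 of the 7 members were called, with 1978 genes in all: Krt8 1.23, Krt18 1.44, Krt19 1.98, Krt7 2.22 and Krt80 1.36, all higher in RFP. Without 4 days RFP replicate 1, which was mostly AT2-like, the same 5 members were called without the block, with 1428 genes in all. Krt23 at 0.35 (SE 0.26) and Krt15 at 0.50 (SE 0.51) were not called in these fits.

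Within a time point the spread was wider. At 2 weeks edgeR called 0 of 13771 genes (0%) and 0 of 8 members for RFP against YFP, with 2254 genes and 5 members under an unadjusted p of 0.05, while DESeq2 called 465 genes and 4 members. With the replicate block 4 of 8 members were called among 2122 genes: Krt8 at 1.53, Krt18 at 1.73, Krt19 at 2.33 and Krt7 at 2.33. Without the block, leaving out 1 library moved Krt7 from 1.5 (without 2 weeks YFP replicate 1) to 3.34 (without 2 weeks YFP replicate 2) and Krt19 from 1.68 (without 2 weeks RFP replicate 2) to 3.01 (without 2 weeks YFP replicate 2). At 4 days, edgeR called 0 genes (0%) and 0 of 8 members, with 794 genes and 5 members under 0.05 unadjusted, while DESeq2 called 110 genes and 1 member, Krt7. The block gave 139 genes and no member at 4 days. Whether the RFP minus YFP difference changed with time was tested as an interaction, in which edgeR and DESeq2 both called 0 genes (0%) and 0 members, and 206 genes and 0 members were under 0.05 unadjusted. The change from 4 days to 2 weeks in that log2 difference was 0.61 for Krt8 (SE 0.48), 0.62 for Krt18 (SE 0.55), 0.68 for Krt19 (SE 0.78) and -0.37 for Krt7 (SE 1.10). The Krt7 value turned positive with the replicate block (0.23), with all filtered cells (0.21) and without 4 days RFP replicate 2 (1.24), 2 weeks RFP replicate 1 (0.02) or 2 weeks YFP replicate 2 (0.82).

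The make-up of the keratin pool shifted along with its size. The 10 genes together held 0.0810% and 0.0799% of all alveolar UMIs in Confetti, 0.416% and 0.695% in the 2 weeks RFP replicates, 0.139% and 0.285% in 4 days RFP, 0.114% and 0.156% in 2 weeks YFP and 0.0885% and 0.0728% in 4 days YFP. Krt7 took 8.32% and 8.28% of the keratin UMIs in Confetti, and 23.6% and 25.4% in 2 weeks RFP. Its share was also 26.7% in 4 days RFP replicate 2 and 24.9% in 2 weeks YFP replicate 2, and it was 8.17% to 11.5% in the other 4. Relative to its partner Krt8 was lower: there were 0.891 and 0.898 Krt8 UMIs per Krt18 UMI in Confetti, 0.643 and 0.527 in 2 weeks RFP, 0.663 and 0.740 in 4 days RFP, 0.783 and 0.572 in 2 weeks YFP and 0.750 and 0.885 in 4 days YFP. All members together gave 0.798 and 0.783 type II UMIs per type I UMI in Confetti and 0.961 and 0.870 in 2 weeks RFP, with a range over all 10 libraries of 0.678 to 1.10. These ratios are descriptions, with no test.

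**Figure D3:**
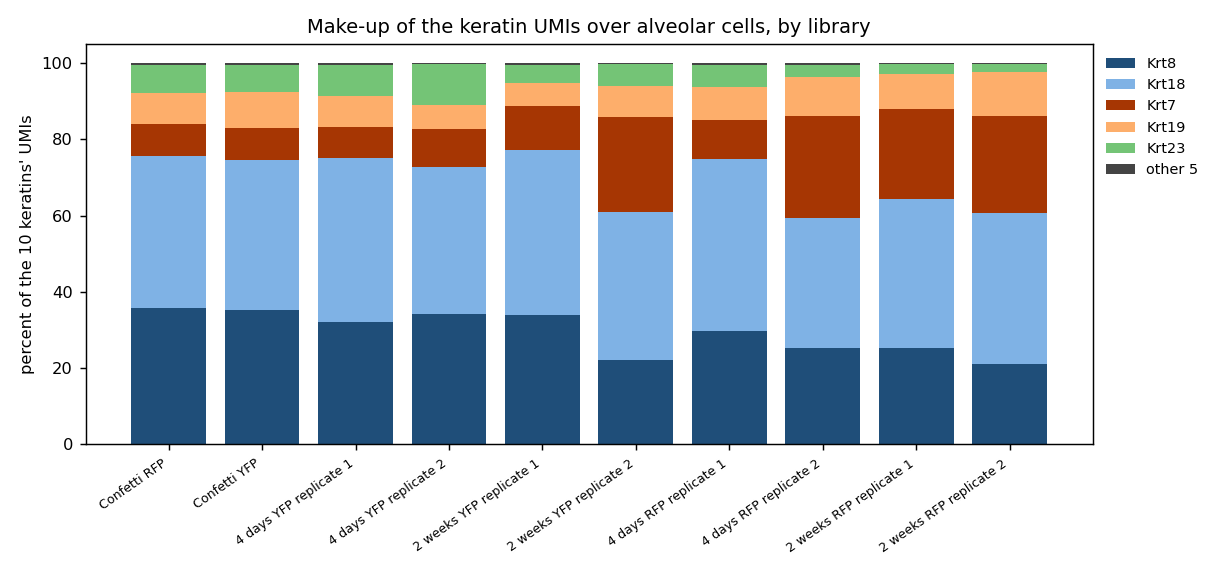
Percent of the 10 keratins' UMIs (vertical axis) held by 5 named genes and by the other 5 pooled, over the alveolar cells of each library (stacked bars, ordered by group). Krt7 takes 8.32% in Confetti RFP and 25.4% in 2 weeks RFP replicate 2, with like shares in replicate 2 of 4 days RFP (26.7%) and of 2 weeks YFP (24.9%).

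A level summed over a library cannot tell more keratin-bearing cells from more keratin per cell, so cells were also read by state. Clusters were made without any keratin gene and named from markers that hold none, and a cluster was called DATP-like by markers such as Cldn4. A cluster of 2042 cells led by Meg3 and Dlk1, with Cd177 among its leading genes, did not reach the rule for a name. Levels by state are CPM of that state's own UMIs, in libraries with at least 50 of its cells unless another number is given, and they carry no test, since genes that move with keratins took part in the clustering.

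By their medians over libraries, Krt8, Krt18, Krt7 and Krt19 were highest in DATP-like cells. Krt8 stood at 1245 CPM in the DATP-like cells of 4 days RFP replicate 2, and at 2377 and 2774 in 2 weeks RFP replicates 1 and 2. In AT2-like cells its median over 7 libraries was 332 CPM (274 to 772), in primed AT2-like cells 301 (201 to 474, 7 libraries), in cycling cells 527 (268 to 1381, 8 libraries), and in the Meg3/Dlk1 cluster 849 and 607 in the 2 weeks RFP replicates. Krt18 followed the same order, with a median of 4005 CPM in DATP-like and 410 in AT2-like cells. Krt7 had a median of 2922 CPM (1589 to 3601) in DATP-like cells, of 94.5 (64.1 to 164) in AT2-like cells and of 97.4 (62.6 to 143) in primed AT2-like cells. Krt19 had medians of 970 CPM in DATP-like, 96.5 in AT2-like and 48.5 in primed AT2-like cells. The DATP-like range of each of these 4 genes lay above its AT2-like and primed AT2-like range.

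With at least 20 cells of each state, DATP-like and AT2-like cells could be compared inside 6 libraries, 4 RFP and 2 YFP. Krt8, Krt18, Krt19, Krt7 and Krt80 were higher in DATP-like cells in 6 of 6, with median ratios of 4.14, 4.64, 8.95, 19.3 and 4.01. The Krt80 ratios rest in part on few UMIs, with 3 in the DATP-like cells of 2 weeks YFP replicate 2. Krt23 was higher in 5 of 6, with a median ratio of 1.65. The DATP-like cells of the 2 weeks YFP libraries, 21 and 28 cells in replicates 1 and 2, carried Krt7 at 2794 and 2870 CPM and Krt8 at 1957 and 1643 CPM, against 2922 and 3601 CPM of Krt7 and 2377 and 2774 of Krt8 in the 2 weeks RFP replicates. Carry-over of RFP+ cells into the YFP sort was not tested, and 2 weeks YFP replicate 2 also held 28 cells of the Meg3/Dlk1 cluster, of which the other YFP libraries held 2 or fewer. Primed AT2-like cells lay on the other side: Krt18 was lower in them than in AT2-like cells of the same library in 8 of 8 libraries, and Krt8 and Krt19 in 7 of 8. The primed AT2-like share was 2.19% and 82.8% in 4 days YFP replicates 1 and 2. In 4 days RFP replicates 1 and 2 it was 2.99% and 46.3%. Replicate 2 of each colour at 4 days held 41 AT2-like cells. A primed AT2-like cluster of 4470 cells was led by the heat-shock genes Hspa1b, Hspa1a and Hspb1. Whether the replicate takes part in the difference between these states was not tested. In the Meg3/Dlk1 cluster Krt8, Krt18, Krt19 and Krt7 were above the primed AT2-like level in 4 of 4 libraries and below the DATP-like level in 5 of 5.

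**Figure D4:**
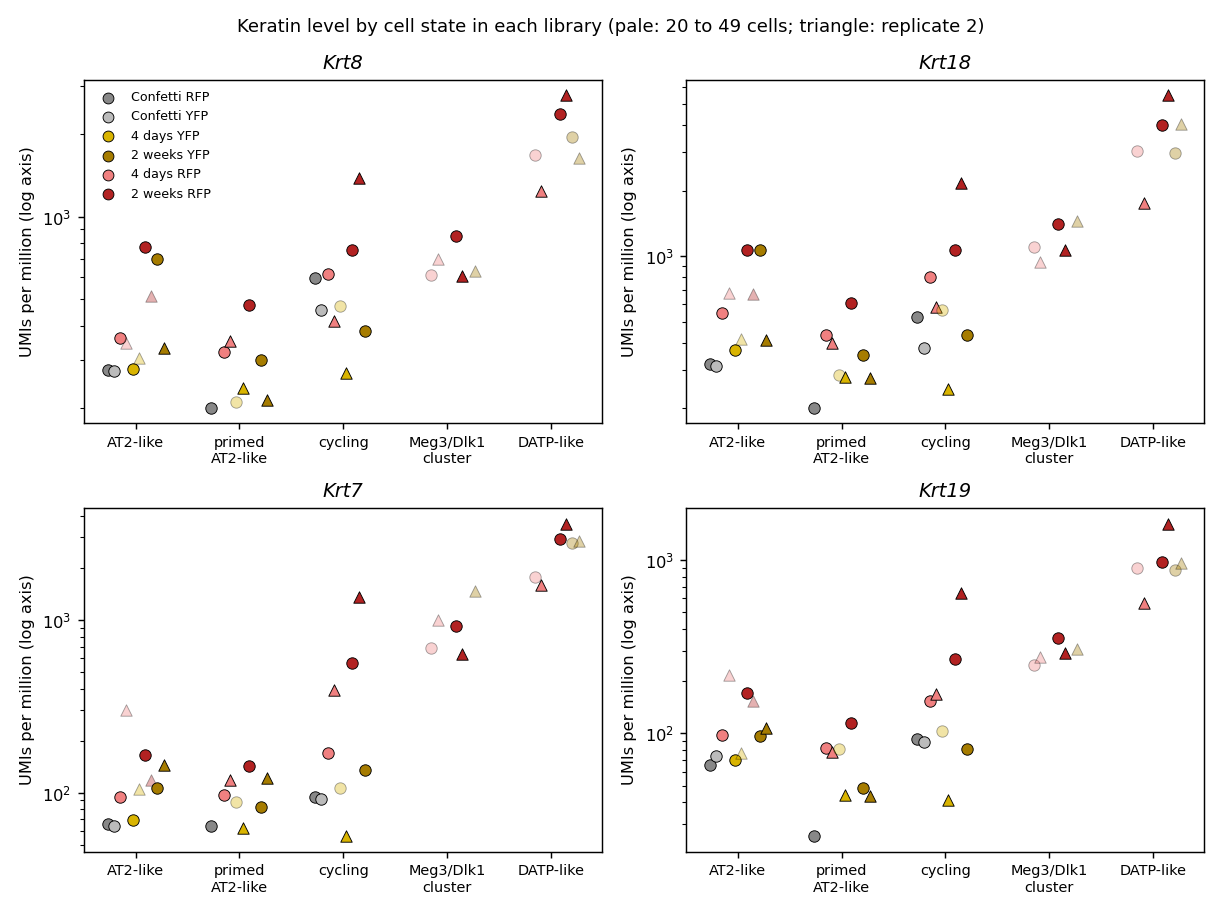
CPM (vertical axes, logarithmic) of Krt8, Krt18, Krt7 and Krt19 in 5 cell states (horizontal axes), with a point per library coloured by group, triangles for replicate 2 and pale points for 20 to 49 cells. The DATP-like points lie above the AT2-like and primed AT2-like points for each gene, for Krt7 with medians of 2922, 94.5 and 97.4.

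AT2-like cells themselves also differed between libraries. They pool clusters of 7269, 3366 and 3021 cells, of which that of 3366 was led by Cxcl2, Nfkbia and Atf3. At resolution 1.5 a cluster of 1445 cells led by Cxcl2 and Fosb had no name. Whether the mix of these clusters takes part in the differences was not tested. The Krt8 level of AT2-like cells was 276 and 274 CPM in Confetti, 361 in 4 days RFP replicate 1, 277 in 4 days YFP replicate 1, 699 and 332 in the 2 weeks YFP replicates and 772 in 2 weeks RFP replicate 1. Krt18 in the same cells was 317 and 311 CPM in Confetti, 1062 and 410 in 2 weeks YFP and 1066 in 2 weeks RFP replicate 1. Fewer cells gave the levels of 2 weeks RFP replicate 2, with 35 AT2-like cells at 512 CPM of Krt8 and 669 of Krt18. The AT2-like cells of 2 weeks YFP replicate 1 thus lay between the 2 weeks RFP replicates for both genes, and those of 2 weeks YFP replicate 2 lay below both. Cycling cells of 2 weeks RFP replicate 2 (115 cells) stood out with 1360 CPM of Krt7 against 55.9 to 562 in the other 7 libraries.

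Leaving the DATP-like cells out of the sums reduced the 2 weeks RFP level without removing the difference from Confetti, a step added after the values had been seen. Krt8 in 2 weeks RFP was then 664 CPM against 285 in Confetti (mean of 2, scaled to all UMIs of the cells kept), a ratio of 2.33 in place of 4.38. For Krt18 the ratio was 3.26 in place of 6.88, for Krt19 3.72 in place of 8.32, and for Krt7 8.17 in place of 20.6. With the Meg3/Dlk1 cells left out as well, the ratios were 3.21 for Krt8, 4.24 for Krt18, 5.16 for Krt19 and 10.8 for Krt7. These means rest in part on few cells: 172 of 2772 were left in 2 weeks RFP replicate 2, of which 115 were cycling cells, against 2766 of 4047 in replicate 1. Krt7 stood at 1128 CPM in those 172 cells and at 309.7 in replicate 1, and Krt8 at 1221 and 609.7. Krt20 changed most, to a ratio of 2.06 from 17.6, as DATP-like cells held 89.7% and 94.4% of its UMIs in 2 weeks RFP replicates 1 and 2. In the same libraries they held 68.8% and 75.3% of the Krt7 UMIs, 52.6% and 70.4% of the Krt8 UMIs and 23.2% and 36.9% of all UMIs. In 2 weeks YFP replicate 2 the 28 DATP-like cells, 2.78% of the alveolar cells, held 49.8% of the Krt7 UMIs, and another 28 cells of the Meg3/Dlk1 cluster held 20.7%.

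At the resolution used, the DATP-like cells formed a pair of clusters with different keratins. One was led by Spp1, Gzme and Procr, the other by Ndrg1 and Hmga2, and 3 libraries had at least 20 cells of each. The split depends on the resolution: at 1.5, 358 cells led by Gzme, Spp1 and Mcpt8 formed a cluster that took the name of another list (Cd177, Cd38, Dlk1 and Ctse) beside 2 DATP-like ones, as did 292 such cells when all cell types were clustered together. In the 3 libraries, Krt8, Krt18, Krt7, Krt19 and Krt23 were higher in the Spp1-led cluster: in 2 weeks RFP replicate 1, Krt8 stood at 2496 and 1766 CPM and Krt23 at 248.9 and 65.4. Krt80 had the opposite order in all 3, with 9.36, 11.1 and 11.5 CPM in the Spp1-led cluster and 29.9, 29.1 and 36.1 in the Ndrg1-led cluster of 4 days RFP replicates 1 and 2 and of 2 weeks RFP replicate 1. The 4 days RFP replicate 1 value rests on 2 and 5 UMIs. Krt20 stood at 7.45 CPM in the Spp1-led cluster of 2 weeks RFP replicate 1 and at 0.744 in the Ndrg1-led one.

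**Figure D5:**
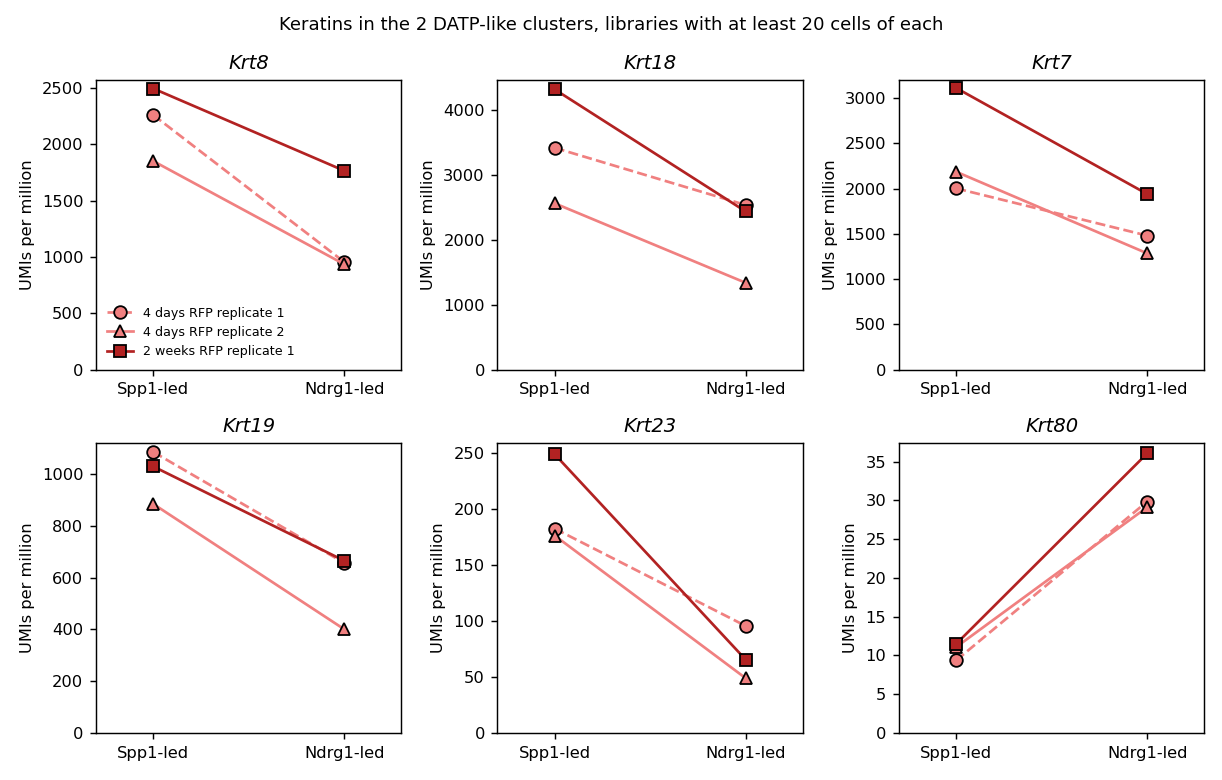
CPM (vertical axes, each from 0) of 6 keratins in the Spp1-led and the Ndrg1-led DATP-like cluster (horizontal axes), with a line per library for the 3 libraries that have at least 20 cells of each. Lines fall from left to right for 5 genes and rise for Krt80, from 11.5 to 36.1 in 2 weeks RFP replicate 1.

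To compare shares of cells across depths, each cell was thinned to 2000 UMIs, which left out 0 to 6 cells per library. Krt8 was then detected in 36.1% and 34.8% of Confetti cells, in 65.8% and 71.0% of 2 weeks RFP cells, in 41.8% and 57.7% of 4 days RFP cells, in 44.7% and 35.9% of 2 weeks YFP cells and in 34.0% of cells in either 4 days YFP library. The 4 days RFP replicate 1 share was thus below that of 2 weeks YFP replicate 1. Without thinning the Confetti shares were 53.8% (exact 95% interval 52.2 to 55.4) and 48.1% (46.5 to 49.7), and the 2 weeks RFP shares were 95.2% and 95.5%. Thinned Krt7 shares were 11.3% and 10.6% in Confetti, 42.9% and 63.5% in 2 weeks RFP, 15.7% and 41.1% in 4 days RFP and 15.1% and 22.9% in 2 weeks YFP. Unthinned, Krt7 was seen in 20.7% and 16.9% of Confetti cells and in 80.0% and 88.3% of 2 weeks RFP cells. The 2431 discarded immune cells (median 7099 UMIs) should lack these genes. Their thinned share was 3.99% for Krt8, 4.98% for Krt18, 2.55% for Krt7 and 0.741% for Krt23, below that of any library. The immune share of Krt8 differed by library, with 0.5642% in 2 weeks YFP replicate 2 and 12.58% in 2 weeks RFP replicate 1. The 91 thinned mesenchymal cells gave 17.58% for Krt8, 16.48% for Krt18 and 10.99% for Krt7. Thinned endothelial cells gave 5.161%, 3.548% and 2.581%. The mesenchymal Krt7 share lay between those of Confetti YFP and Confetti RFP, and its origin was not tested.

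For Krt19 the immune share was not below that of every library. Krt19 was seen in 10.5% and 11.5% of thinned Confetti cells and in 34.9% and 53.8% of 2 weeks RFP cells. It was also seen in 18.4% of thinned immune cells, 9.89% of thinned mesenchymal cells and 1.29% of thinned endothelial cells. Shares of Krt19 in Confetti, in YFP libraries and in 4 days RFP replicate 1 (8.62% to 15.4%) were thus below the immune share and above the endothelial share. The mesenchymal share lay within their range. In the immune cells of Confetti Krt19 stood at 356 and 360 CPM and Krt8 at 50.9 and 10.5 CPM, whereas in the alveolar cells of the same libraries Krt8 exceeded Krt19. The origin of Krt19 in the immune cells was not tested.

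Within states, Krt7 was detected more often in cells with a Krt19 UMI than in cells without. Among thinned DATP-like cells of 2 weeks RFP replicates 1 and 2, where nearly all cells had Krt7, it was seen in 95.8% and 96.3% of cells with Krt19 and in 88.1% and 87.1% of cells without. In the Meg3/Dlk1 cluster of these libraries Krt7 was seen in 70.2% and 61.3% of cells with Krt19 and in 46.4% and 33.5% of cells without. In AT2-like cells of Confetti it was seen in 17.1% and 18.9% of cells with Krt19 and in 10.7% and 9.36% of those without. Whether cell size or free RNA takes part in this was not tested.

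Other keratins with 100 UMIs or more were Krt10, Krt79, Krt87 and Krt78. Krt10, a keratin known from differentiated epidermis, stood at 25.5 and 25.4 CPM in Confetti and at 16.0 and 17.9 in 2 weeks RFP. Krt79 stood at 1.09 and 0.719 CPM in Confetti and at 2.33 and 5.36 in 2 weeks RFP, Krt87 at 0.121 and 0 against 0.858 and 1.20, and Krt78 at 0.362 and 0.196 against 0.910 and 0.122.

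Genes of junctions and linkers that anchor keratin filaments were read as a list. Of 19 desmosome, hemidesmosome and linker genes 16 were tested in 2 weeks RFP against Confetti and 0 were called by edgeR, with 6 at an unadjusted p under 0.05, as had 4280 of all 13771 genes. DESeq2 called 2 of the 16, Itgb4 higher and Pkp4 lower, and 2201 of all genes. Their median log2 fold change was 0.52 beside 0.03 over all genes tested and 2.47 over the 8 keratins tested, a difference that was not tested, and 12 of the 16 were positive. Itgb4, the partner of Itga6 in hemidesmosomes, stood at 0.302 and 0.0654 CPM in Confetti, at 14.9 and 12.4 in 2 weeks RFP and at 0.657 and 21.7 in 4 days RFP (adjusted p = 0.0522 in 2 weeks RFP). Dsc2, a desmosomal cadherin, had no UMI in Confetti and 46 and 4 UMIs in the 2 weeks RFP replicates. Itga6, Itgb4 and Perp were called when either 4 days RFP replicate was left out, in fits that called 1922 and 1913 genes in all. Jup, plakoglobin, stood at 57.7 and 63.9 CPM in Confetti and at 64.7 and 64.3 in 2 weeks RFP. Plec, plectin, stood at 36.1 and 39.6 CPM in Confetti and at 55.3 and 52.6 in 2 weeks RFP. Itga6, an integrin chain of hemidesmosomes, stood at 17.1 and 16.4 CPM in Confetti and at 105 and 106 in 2 weeks RFP, but also at 19.96 and 158 in the 4 days RFP replicates (log2 fold change in 2 weeks RFP 2.65, SE 0.90, adjusted p = 0.0977). Of 15 intermediate filament genes other than keratins 8 were tested. DESeq2 called 4 of the 8 higher, Lmna, Lmnb1, Nes and Vim, beside its 2201 of all genes. By edgeR 2 were called, Vim and Lmnb1, both higher, beside 5.33% of all genes. Neither was called without Confetti RFP, Confetti YFP or 2 weeks RFP replicate 2, nor with the discarded cell types added, and Vim alone was called without either 4 days YFP or either 2 weeks YFP replicate or without 2 weeks RFP replicate 1. Vim, vimentin of mesenchymal cells, rose from 0.302 and 0.523 CPM in Confetti to 19.9 and 8.08 in 2 weeks RFP (log2 fold change 5.12, SE 0.67, adjusted p = 0.0297), while the summed level of the 5 mesenchymal markers was 0.286 and 1.76 CPM there. Lmnb1, lamin B1 of the nuclear lamina, rose by 1.29 on the log2 scale (SE 0.28, adjusted p = 0.0443), and Lmna and Lmnb2 had 1.20 (adjusted p = 0.0878) and 0.35 (adjusted p = 0.553).

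The genes whose levels ran most nearly parallel to the keratins over the 10 libraries were found by Pearson's r of log2(CPM + 1) among 13771 genes. For Krt8 they were Ifitm10 (0.993), Mtap (0.992), Hnrnpf (0.989), Eif4a1 (0.989) and Ccdc86 (0.988), and Krt18 came next at 0.987. For Krt19 they were Igf1r (0.990), Bin1 (0.987), 9530053A07Rik (0.984), Rsl1d1 (0.983) and F3 (0.982), with Krt18 at 0.979. For Krt7 they included Nt5e (0.998), S100a14 (0.995), Paqr5 (0.994) and Gsto1 (0.993), and Krt18, the nearest member, stood at 0.965 in rank 113. The 10 points share groups, depth and state composition, so these values describe likeness only.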

How the data were processed

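Per the labels and the file headers, the authors prepared 10x Genomics 3' libraries from sorted cells and deposited raw UMI counts per gene and cell on GRCm38. The file headers name Cell Ranger 5.0.1 and the submitters' processing notes Cell Ranger 3.1.0, FastQC 0.11.3 and MultiQC 1.8, and the labels and the study's methods give different versions of the library chemistry. Cells with fewer than 1000 genes, over 50000 UMIs or over 15% mitochondrial UMIs were removed here. Cells were clustered in scanpy 1.11.5 without any keratin gene (5000 variable genes, 30 principal components, 20 neighbours, Louvain resolution 0.8) and without the batch integration of the study, since no label gives the batch, so states may differ from the study's. No doublets were removed in the main analysis, and removal of the cells with the highest Scrublet scores was an alternative.

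Counts were summed over the alveolar cells of each library and tested with edgeR 4.0.16 (quasi-likelihood, TMM, filterByExpr) in R 4.3.3, in 1 fit of 6 groups over 10 libraries. The comparison over both time points used the 8 libraries of the mutant line with time as a term. Where a group had 1 library it was assumed to vary like the others. Confetti is the mean of its 2 coefficients. P-values were adjusted for all genes in a fit by Benjamini-Hochberg and called under 0.05, two-sided. DESeq2 1.42.0 was an alternative, and the test was checked on simulated data. Total counts per library gave the depth, and exact intervals and floors of 3 counts cover counting error only. Deviations of RFP and YFP libraries with the same replicate number from their group means correlated at 0.47 at 4 days and 0.63 at 2 weeks. Anything shared by a replicate number, such as sex, would also give such a correlation, so it cannot show that the libraries come from the same lungs. The fit with a replicate block takes this pairing as an assumption. Replicates of a group differed by more than sampling noise and were all kept. The genes named are the 10 keratins, other keratins with at least 100 UMIs, the 5 nearest genes of Krt8, Krt19 and Krt7, and genes of the lists of keratin partners and other intermediate filaments. Some items that fall under this rule are not reported here. Members and lists were chosen with earlier results of these data known. The promoter sequences are from RefSeq (GRCm38.p6).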

Additional observations from a re-analysis of the deposited data

Results flagged for a closer look

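Keratin signal above the Confetti alveolar level was found in cells that were left out of the comparisons, except in the alternative that adds all filtered cells. In counts relative to all UMIs of a cell type (CPM), Krt19 stood at 156 over the 2431 discarded immune cells, with 356 and 360 in those of Confetti RFP and of Confetti YFP, and 46.5 in 4 days RFP replicate 2, while Krt8 stood at 51.0 over the same cells. Krt80 stood at 54.5 CPM over the 337 discarded endothelial cells, from 8, 14 and 33 UMIs in Confetti RFP, Confetti YFP and 4 days YFP replicate 1 among others. Discarded ciliated cells, 252 in number, held Krt8 at 990.5, Krt18 at 1083 and Krt19 at 471 CPM, with Krt7 at 89.9 and Krt80 at 7.49 CPM. The 100 discarded mesenchymal cells held Krt7 at 284 and Krt19 at 239.5 CPM. Krt8 at 166.5 and Krt18 at 232 CPM were below the Confetti alveolar level there. No group had enough libraries to look for single libraries far from the rest, and the origin of these values was not tested.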

How the results depend on the processing

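Of 1443 alternative values of the results printed, 1246 kept their direction and side of the threshold or stayed within the spread, and 12 changed sign: Krt15 in 2 weeks RFP against Confetti (-1.28 to 0.10 over the libraries left out, the positive value without 2 weeks RFP replicate 2), Krt15 in 2 weeks RFP against 2 weeks YFP (-0.76 to 1.31 over the libraries left out, with -0.76 without 2 weeks RFP replicate 1 and -0.32 without 2 weeks YFP replicate 2), Krt23 in 4 days RFP against 4 days YFP (-0.018 to 0.26, negative without 4 days YFP replicate 1), Krt8 in 4 days YFP against Confetti (-0.0030 with all filtered cells, and -0.017 to 0.14 over the libraries left out, negative without Confetti YFP), Krt19 in 4 days YFP against Confetti (-0.40 to 0.13, positive without 4 days YFP replicate 2), and Krt7 in the difference of RFP minus YFP between time points (0.23 with the replicate block, 0.21 with all filtered cells and -1.12 to 1.24 over the libraries left out, of which 1.24, 0.018 and 0.82 came without 4 days RFP replicate 2, 2 weeks RFP replicate 1 and 2 weeks YFP replicate 2). The 1246 also include counts of keratins or genes called that stayed equal or close in size. The spread meant here is the standard deviation between libraries, which is a loose bound. The cause of the shifts below was not tested.

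With the DESeq2 Wald test, keratins called were 5 for RFP against YFP over both time points, 1 for 4 days RFP against 4 days YFP, 4 for 2 weeks RFP against 2 weeks YFP, 2 for 4 days RFP against Confetti and 6 for 2 weeks RFP against Confetti. Genes called were then 1222, 110 and 465 for the RFP against YFP comparisons in that order, and 2201, 264, 102 and 12 for 2 weeks RFP, 4 days RFP, 2 weeks YFP and 4 days YFP against Confetti. With no filter on low counts, keratins called in the same order were 6, 3 and 4 for RFP against YFP and 8, 3 and 1 for 2 weeks RFP, 4 days RFP and 2 weeks YFP against Confetti, and genes called were 1938, 504, 1382, 3241, 824, 535 and 134, with 58 for the difference of RFP minus YFP between time points. With the replicate block, which pairs RFP and YFP libraries, 5 keratins and 1978 genes were called over both time points, 4 keratins and 2122 genes at 2 weeks and 139 genes with 0 keratins at 4 days, and it changed no other call of a keratin. With DESeq2 size factors 1 gene was called for 2 weeks RFP against 2 weeks YFP. With Confetti as 1 group of 2 libraries, 6 keratins were called for 2 weeks RFP against Confetti, and genes called were 1 for 2 weeks RFP against 2 weeks YFP and 2109, 6 and 5 for 2 weeks RFP, 4 days RFP and 2 weeks YFP against Confetti. With all cells that pass the quality filters, 0 keratins and 0 genes were called for 2 weeks RFP against Confetti, and 0 genes for 2 weeks YFP and for 4 days YFP against Confetti. The share of 2 weeks RFP cells with Krt8 was 52.0% at 1000 UMIs per cell, 95.3% without thinning and 45.3% at 2 UMIs or more.

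Leaving out each library in turn gave 0 to 5 keratins and 0 to 1428 genes for RFP against YFP over both time points, 0 to 199 genes at 4 days and 0 to 1 at 2 weeks. Against Confetti it gave 0 to 5 keratins and 1 to 1922 genes for 2 weeks RFP, 0 to 332 genes for 4 days RFP, 0 to 7 for 2 weeks YFP and 0 to 3 for 4 days YFP. Each group has 1 or 2 libraries, and low counts limit Krt5, Krt15, Krt17 and Krt20.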
